A study of Bos taurus with 14 samples.

Results

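A list of 10 genes that WNT signalling switches on in many vertebrate tissues was followed through bovine embryonic stem cells, blastocysts and skin fibroblasts: AXIN2, NKD1, NKD2, LEF1, TCF7, SP5, LGR5, NOTUM, RNF43 and ZNRF3. The genes were chosen by symbol, and 9 of the 10 were measured, among 23159 names in the control and passage 10 tables and 24590 in the tables of later passages. No feature carried the symbol NOTUM, so that gene was not analysed here. The stem cells (CTFR-bESC, here bESC) were derived from blastocysts and grown on mouse embryonic fibroblasts in a custom growth-factor-free medium to which FGF2 (human, 20 ng/mL) and the WNT inhibitor IWR1 (2.5 µM) had been added. Both lines were sequenced at passage 10 (P10) and at 4 later passages, P13, P23, P35 and P45 for line A and P12, P24, P35 and P46 for line B, 1 library at a time. The samples set against them were 2 blastocyst pools, each of 10 embryos whose titles call them in vivo, and 2 skin fibroblast lines. All 10 bESC libraries came from cells grown with IWR1, so the effect of the inhibitor cannot be told apart from the identity of the cells. Libraries of 1 bESC line are passages of that line, and p-values over them measure the spread between passages; nothing in the labels says that the other samples of a group came from separate animals.

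WNT ligands bind Frizzled receptors and LRP co-receptors at the cell surface. Without ligand, a destruction complex built on AXIN and APC marks beta-catenin for degradation; with ligand, beta-catenin builds up and joins TCF and LEF factors on DNA. Several of the genes that then turn on act back on the pathway. AXIN2 is a scaffold of the destruction complex, NKD1 and NKD2 bind Dishevelled, NOTUM inactivates WNT ligands, and RNF43 and ZNRF3 are ubiquitin ligases that clear Frizzled from the membrane. LGR5 is a receptor for R-spondins, which block RNF43 and ZNRF3. LEF1 and TCF7 are themselves DNA-binding partners of beta-catenin, and SP5 is a repressor that acts on WNT target genes. IWR1 inhibits the tankyrases, which mark AXIN proteins for destruction, and so stabilises the destruction complex.

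The deposited values are RPKM, which scale reads by gene length and library size, so levels of different genes can be set side by side. They come as 2 sets of tables, of which the first holds the 6 control and P10 libraries and the second the 8 libraries of later passages. Nearly every value is a whole multiple of what 1 read is worth, so reads could be recovered, 9275170 to 12668057 per library in the first set and 14934546 to 20588789 in the second. Ranges in brackets after a single RPKM value are exact 95% Poisson intervals of those reads and cover counting error only. The housekeeping gene GAPDH stands at 0 in every one of the 14 libraries, and a 0 of any gene is therefore given only as a listing at 0. In the blastocyst pools, 2 features took 65.8% and 64.0% of the summed RPKM, against 2.40% and 2.63% in the P10 libraries and 3.36% and 3.26% in the fibroblasts. These are shares of RPKM and not of reads, and their part in the levels of other genes in the pools was not tested. Epiblast markers summed to 570 and 651 RPKM in the P10 libraries, 58.8 to 68.9 RPKM in the blastocyst pools and 0.627 to 2.16 RPKM in the fibroblasts, and fibroblast markers to 673 and 1044, 4.06 to 5.01, and 14224 to 14811 RPKM in the same order. Trophectoderm markers summed to 157 and 189 RPKM in the P10 libraries, 665 and 957 RPKM in the blastocyst pools and 27.6 and 33.1 RPKM in the fibroblasts. Of these 9 markers, 2 reached 1 RPKM in each P10 library, 6 in each pool and 3 to 4 in the fibroblasts. In the limma fit described below, 2 of 7 were higher at P10 than in fibroblasts and 3 lower, beside 35.4% and 21.9% of all genes. Later bESC libraries summed to 236 to 739 RPKM in line A and 536 to 789 RPKM in line B. In bulk RNA, fewer cells of a type and less RNA per cell cannot be told apart.

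By RPKM, which depends on the gene length used, NKD2 had the highest level in bESC among the measured genes, followed by TCF7. In recovered reads at P10, lines A and B had 188 and 239 for NKD2 and 185 and 174 for TCF7. At P10, NKD2 averaged 7.61 ± 0.131 RPKM and TCF7 2.20 ± 0.429 RPKM (SD, n = 2 each), and the 2 genes did not overlap. Next came ZNRF3 at 1.17 ± 0.253, AXIN2 at 1.02 ± 0.293 and LEF1 at 0.989 ± 0.250 RPKM, whose values overlapped. LGR5 at 0.529 ± 0.216 and NKD1 at 0.521 ± 0.0078 RPKM also overlapped each other, and RNF43 at 0.154 ± 0.0233 RPKM was lower than both. SP5 came last, with 1 read in line A and 2 reads in line B. In the 8 later libraries NKD2 at 12.7 ± 1.69 and TCF7 at 4.08 ± 0.559 RPKM again came first (SD, n = 8), followed by AXIN2 at 1.74 ± 0.360 and ZNRF3 at 1.32 ± 0.262 RPKM, whose values overlapped. In the blastocyst pools TCF7 led at 1.98 ± 0.392 RPKM and AXIN2 followed at 0.724 ± 0.228 RPKM, overlapping LEF1. In the fibroblasts NKD2 at 0.885 ± 0.117 and TCF7 at 0.810 ± 0.0559 RPKM overlapped, and every other member was under 0.4 RPKM.

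**Figure D1:**
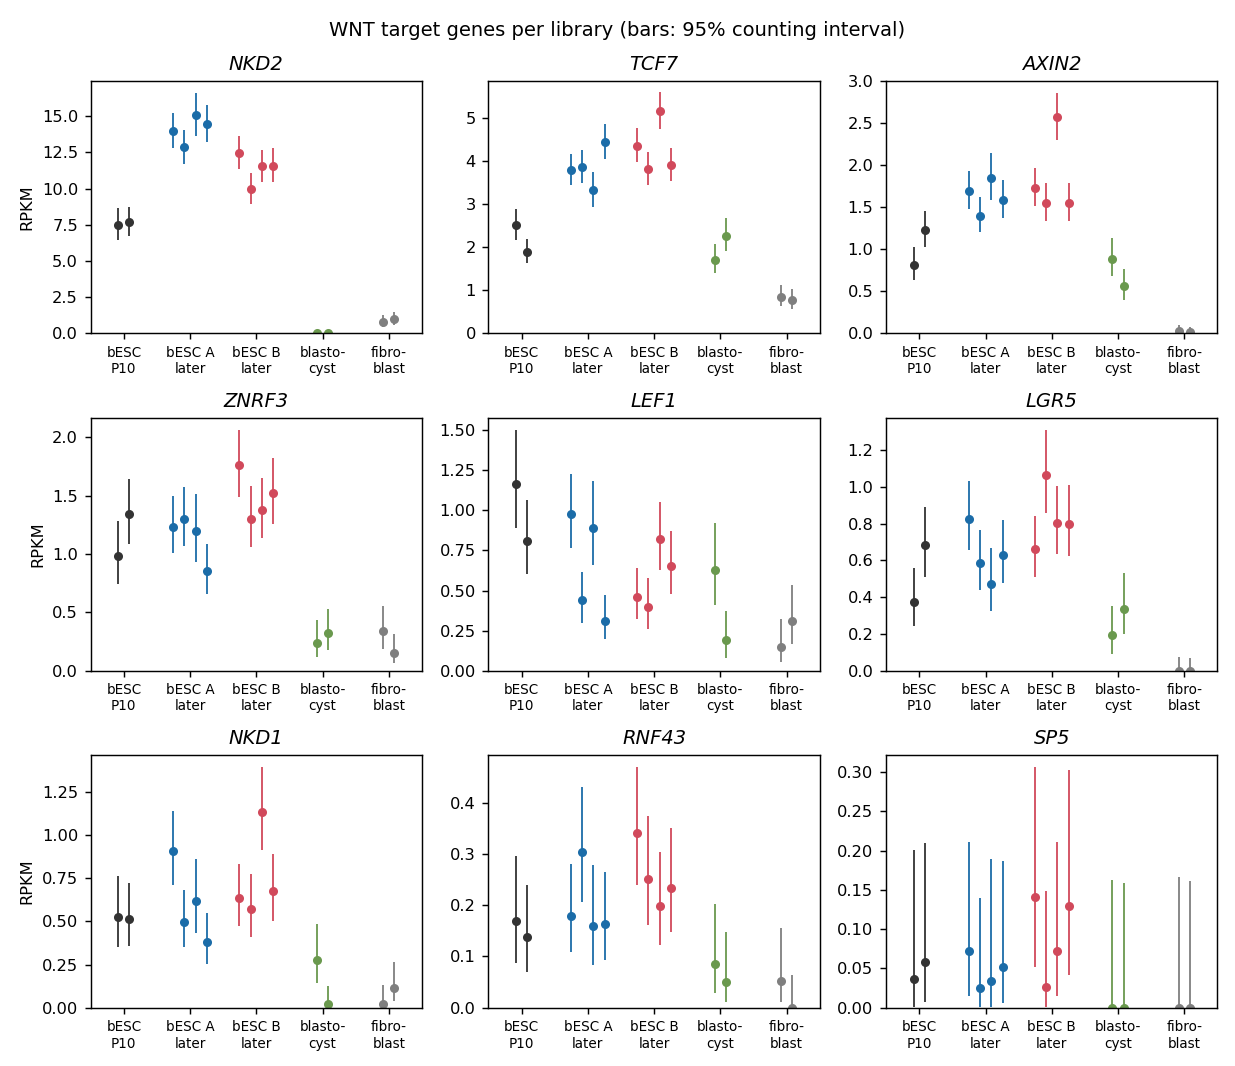
RPKM of the 9 measured genes in each of the 14 libraries, by group, each panel on its own scale starting at 0; points are libraries and bars exact 95% Poisson intervals of the recovered reads. NKD2 lies above 7 RPKM in every bESC library, under 1 RPKM in the fibroblasts and at 0 in both blastocyst pools, while SP5 stays under 0.2 RPKM throughout.

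Among the feedback inhibitors, AXIN2 was present in stem cells and blastocysts and nearly absent from fibroblasts. It measured 0.816 RPKM in line A and 1.23 RPKM in line B at P10, against 0.885 and 0.562 RPKM in the blastocyst pools and 0.029 and 0.014 RPKM in the fibroblasts. The fibroblast values rest on 2 reads and 1 read, against 71 and 133 reads at P10 and 63 and 41 reads in the pools. The bESC and blastocyst values overlapped, and both groups lay above the fibroblasts. Per library total, the summed reads at P10 were 49.3 times those of fibroblasts (exact 95% interval 16.6 to 241, counting error only). In limma-voom, with median-of-ratios library sizes, the fold was 31.0 (95% interval 11.1 to 86.9).

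NKD2 separated all 3 kinds of sample. Its P10 values were 7.52 RPKM in line A and 7.70 RPKM in line B, its fibroblast values 0.802 and 0.968 RPKM, and it was listed at 0 in both blastocyst pools. A level worth 3 reads would have been 0.147 RPKM in pool A and 0.143 RPKM in pool B, against 188 and 239 reads counted at P10. NKD1, its relative, was 0.526 and 0.515 RPKM at P10, 0.276 and 0.022 RPKM in the pools, and 0.024 and 0.114 RPKM in the fibroblasts. The P10 values of NKD1 lay above all control values, while the pools and the fibroblasts overlapped and came down to 1 read in pool B and in fibroblast line A.

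Of the transcription factors, TCF7 was found in every library. It measured 2.51 RPKM in line A and 1.90 RPKM in line B at P10, 1.71 and 2.26 RPKM in the pools, and 0.849 and 0.770 RPKM in the fibroblasts. Stem cells and blastocysts overlapped and fibroblasts lay below both. LEF1 measured 1.17 and 0.812 RPKM at P10, 0.628 and 0.188 RPKM in the pools, and 0.149 and 0.311 RPKM in the fibroblasts. For LEF1 the P10 values were above all others and the pools overlapped the fibroblasts. SP5 had 1 to 6 reads in each of the 10 bESC libraries and was listed at 0 in the 4 controls. A level worth 3 reads of SP5 would have been 0.129 to 0.136 RPKM in the controls, which is above its P10 values of 0.036 and 0.058 RPKM, so a difference was not detectable at this depth.

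Of the genes that act at the receptor, LGR5 was listed at 0 in both fibroblast lines. It measured 0.376 and 0.682 RPKM at P10, from 24 and 54 reads, and 0.192 and 0.336 RPKM in the pools, from 10 and 18 reads. A level worth 3 reads would have been 0.0589 and 0.0569 RPKM in the fibroblasts, under all 4 of those values. ZNRF3 measured 0.986 and 1.34 RPKM at P10, against 0.241 and 0.321 RPKM in the pools and 0.337 and 0.152 RPKM in the fibroblasts. The P10 values of ZNRF3 were above all controls, and the pools and fibroblasts overlapped. RNF43, which shares its substrate with ZNRF3, had 0.170 and 0.137 RPKM at P10, 0.086 and 0.051 RPKM in the pools, and 0.053 RPKM and a listing at 0 in the fibroblasts. Its P10 values rest on 12 reads each and its fibroblast values on 3 and 0 reads.

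The first comparison sets early stem cells against a differentiated cell. The values at P10 lay above both fibroblast values for all 9 measured members, SP5 with 3 reads in all among them. Among all 17504 features with a value above 0 the same held for 43.9%, and 24.2% lay below. Divided by median-of-ratios size factors, all 9 members again lay above, beside 38.8% of features above and 29.0% below. Only NKD2 and TCF7 reached 1 RPKM in at least 2 of the 6 libraries and so entered the fit as planned, with limma on log2(RPKM + 1), and NKD2 passed only through the P10 libraries, so that its call in this fit and in the one against blastocysts was fixed by the filter. Both were higher at P10, where 35.4% of the 11761 genes tested were higher and 21.9% were lower. NKD2 changed by 2.19 ± 0.17 log2 (SE; adjusted p = 0.000114) and TCF7 by 0.82 ± 0.20 (adjusted p = 0.0116), while the median gene stood at 0.23. Relative to the median gene these changes were 1.96 and 0.59.

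With no filter, all 9 measured members could be tested. There 8 were higher at P10 than in fibroblasts at an adjusted p under 0.05 and SP5 was not, beside 26.7% of 17504 features. Among them AXIN2 changed by 0.98 ± 0.15 (adjusted p = 0.00678), ZNRF3 by 0.80 ± 0.13 (adjusted p = 0.00858), NKD1 by 0.51 ± 0.12 (adjusted p = 0.0243) and LEF1 by 0.69 ± 0.19 (adjusted p = 0.0410). LGR5 (adjusted p = 0.0135) and RNF43 (adjusted p = 0.0428) complete the count beside NKD2 and TCF7. On recovered reads, where changes of the low members came out larger, limma-voom tested 8 members and called 5 higher, beside 30.3% of 12201 genes. These were AXIN2 (adjusted p = 0.00114), NKD2 (adjusted p = 0.00147), TCF7 (adjusted p = 0.0387), LGR5 (adjusted p = 0.000984) and ZNRF3 (adjusted p = 0.0194). NKD1, LEF1 and RNF43 had adjusted p of 0.0633, 0.0627 and 0.0619 there. NKD2 was 2.81 ± 0.38 log2 higher on this scale, ZNRF3 2.03 ± 0.54 and TCF7 1.14 ± 0.37.

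These calls differ in how they hold up. The TCF7 call was lost without line A at P10 (0.68, adjusted p = 0.0637), with quantile normalization (0.22, adjusted p = 0.445) and with median-of-ratios scaling (0.56, adjusted p = 0.0586). It held in the other 12 of 15 alternatives, whose adjusted p began at 0.0113. NKD2 fell under the filter without either P10 library. In the fit without the filter it changed by 2.19 ± 0.16 (adjusted p = 0.000863), and limma-voom on recovered reads gave an adjusted p of 0.00147. Over the 13 alternatives that tested NKD2 the adjusted p ran from 0.000109 to 0.00147. The rest of these were filtered fits, which it entered only through P10, so they are no check on its call. In the fits without the filter, AXIN2 and ZNRF3 were each called in 13 of 14 alternatives, and missed under quantile normalization (adjusted p = 0.0572 and 0.215; over all alternatives 0.00114 to 0.0572 and 0.00777 to 0.215). LGR5 was called in 10 of 14 alternatives and lost without fibroblast line A or B (adjusted p = 0.0775 and 0.0751), with quantile normalization (adjusted p = 0.231) and with median-of-ratios scaling (adjusted p = 0.0656; lowest 0.000984). NKD1, LEF1 and RNF43 were called in 5, 3 and 2 of 14 alternatives, with adjusted p of 0.0164 to 0.801, 0.0383 to 0.731 and 0.0381 to 0.894. NKD1 and LEF1 were lost without any one of the P10 and fibroblast libraries (adjusted p = 0.0773 to 0.129 and 0.101 to 0.197), and RNF43 without any one of the 6 libraries (adjusted p = 0.0551 to 0.121). With quantile normalization NKD1 came to 0.14, LEF1 to 0.19 and RNF43 to 0.02, and all 3 were also lost with median-of-ratios scaling (adjusted p = 0.283, 0.253 and 0.179) and with scaling without the top 2 features (adjusted p = 0.143, 0.123 and 0.0838). A pseudocount of 0.1 ended the calls of NKD1 and LEF1 (adjusted p = 0.0545 and 0.0623).

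**Figure D2:**
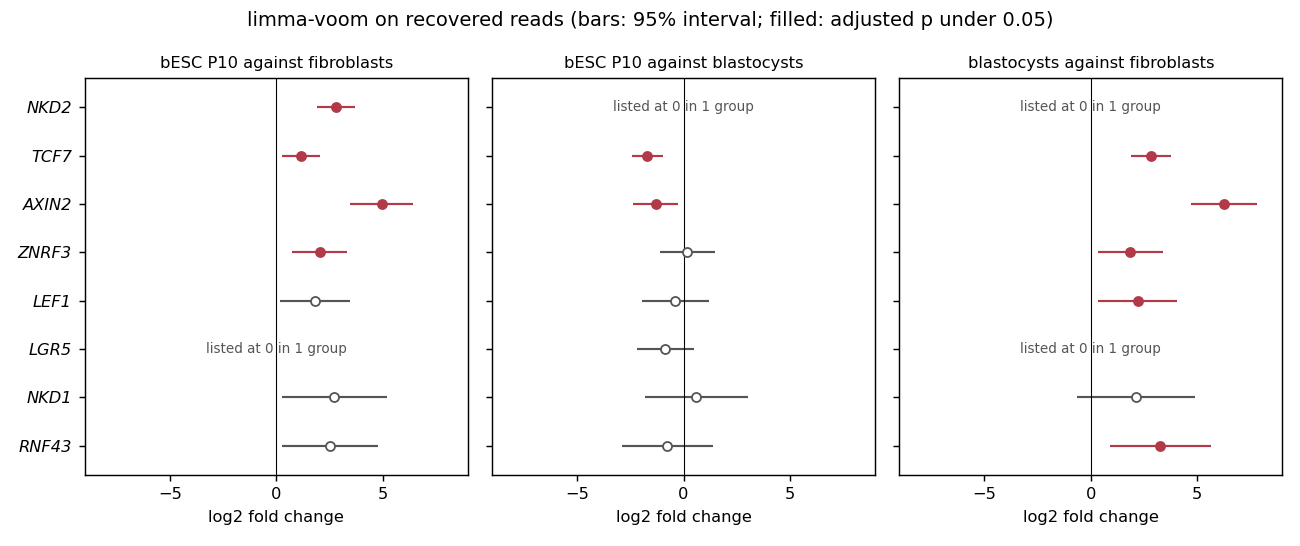
Fitted log2 fold changes of 8 genes on recovered reads (limma-voom) in the 3 comparisons among P10 bESC, blastocysts and fibroblasts; points are estimates, bars 95% intervals, and filled points have an adjusted p under 0.05. At P10 against fibroblasts all genes drawn lie right of 0, with NKD2, TCF7, AXIN2 and ZNRF3 filled. At P10 against blastocysts TCF7 and AXIN2 are filled left of 0, and LEF1, LGR5 and RNF43 also lie left but are open. No estimate is drawn where 1 group was listed at 0.

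The second comparison sets the stem cells against the embryos of the stage they were derived from. Trophectoderm markers summed higher in these pools than at P10, and the part of cell make-up in the differences was not tested. As deposited, both P10 values lay above both pools for 7 of 9 members, all but AXIN2 and TCF7, and below for none. Among those above was SP5, with 3 reads in all at P10. The same held for 67.4% of features above and 10.4% below. NKD2 was higher at P10 than in the pools, where it was listed at 0 (limma, adjusted p = 1.59e-05 in the filtered fit and 0.000170 without the filter). In the filtered fit 73.0% of 11761 genes were higher and 7.33% lower, and the NKD2 call there was fixed by the filter. Division by library factors leaves a 0 in place, so scaling is no check on the direction of NKD2. TCF7 changed by 0.10 ± 0.20 (adjusted p = 0.648), but the median gene stood at 1.43, and TCF7 was at -1.33 relative to it. Of all calls 90.9% were higher as deposited, against 56.5% after median-of-ratios scaling, where TCF7 was lower by -1.17 ± 0.21 log2 (adjusted p = 0.00257). On recovered reads, TCF7 (-1.70 ± 0.31, adjusted p = 0.00399) and AXIN2 (-1.31 ± 0.44, adjusted p = 0.0398) were lower at P10 than in the pools and NKD2 higher, 2 and 1 of 8 members, beside 24.6% and 33.1% of all genes. For AXIN2 the adjusted p ran from 0.00290 to 0.673 over the alternatives, with a positive change on the deposited scale (0.23 ± 0.15, adjusted p = 0.252).

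With no filter, NKD1 (0.41 ± 0.12, adjusted p = 0.0319) and ZNRF3 (0.75 ± 0.13, adjusted p = 0.00583) were also higher at P10 than in blastocysts, 3 of 9 members with NKD2 and none lower, beside 53.3% of features higher and 6.47% lower. Neither was called under median-of-ratios scaling (adjusted p = 0.925 and 0.571) or on recovered reads (adjusted p = 0.634 and 0.782). NKD1 was also lost without blastocyst pool B and without any one of the P10 or fibroblast libraries (adjusted p = 0.0663 to 0.148; range over alternatives 0.0108 to 0.925). LEF1 was called without blastocyst pool A (0.74, adjusted p = 0.0389; range 0.0389 to 0.994) and LGR5 without line A at P10 (0.41, adjusted p = 0.0336; range 0.0193 to 0.509, the lowest with a change of -0.72 under quantile normalization). Divided by size factors, which were 1.62 and 1.61 for the P10 libraries and 0.460 and 0.457 for the pools, AXIN2 came to 0.504 and 0.766 at P10 and to 1.92 and 1.23 in the pools. TCF7 came to 1.55 and 1.18 at P10 and to 3.71 and 4.95 in the pools. On that scale P10 lay above the pools for NKD2 and SP5 and below them for AXIN2, TCF7 and RNF43, 2 and 3 of 9 members, beside 41.2% and 30.6% of features. SP5 is counted there on 3 reads in all at P10, too few to detect a difference.

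**Figure D3:**
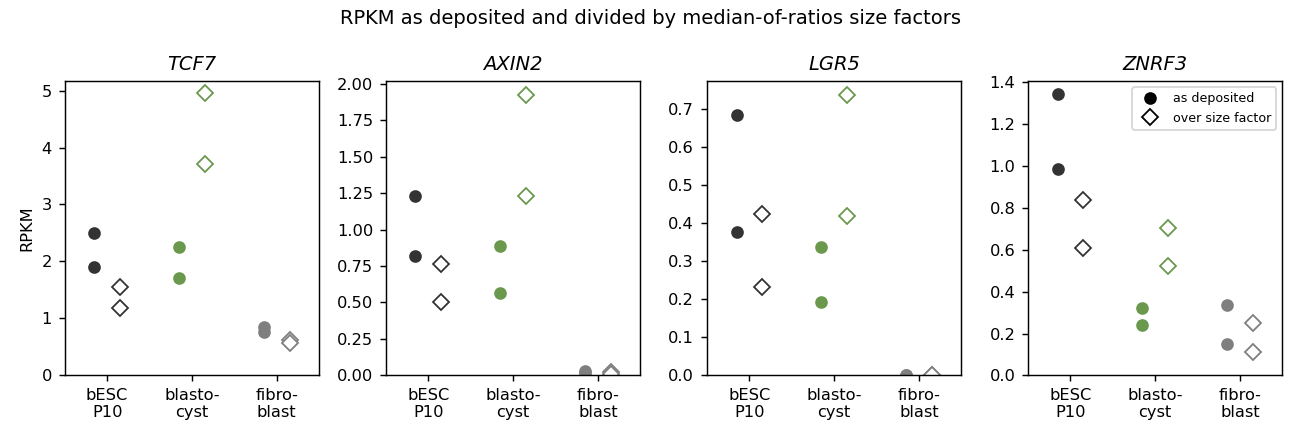
RPKM of TCF7, AXIN2, LGR5 and ZNRF3 in the P10 bESC, blastocyst and fibroblast libraries, as deposited (filled circles) and divided by the library's median-of-ratios size factor (open diamonds). The blastocyst values of TCF7 and AXIN2 overlap P10 as deposited and lie above both P10 values after scaling, while the fibroblast values of these 2 genes stay lowest on both scales.

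The third comparison orders the controls. Both pools lay above both fibroblast lines for AXIN2, TCF7 and LGR5 and below for NKD2, 3 and 1 of 9 members, beside 15.9% and 54.8% of features. Divided by size factors, LEF1, RNF43 and ZNRF3 joined those above, 6 members against 1, beside 32.5% and 35.8%. TCF7 was higher in blastocysts than in fibroblasts (0.72 ± 0.20, adjusted p = 0.0140), and NKD2, listed at 0 in the pools, was lower (adjusted p = 0.00225). Of 11761 genes, 11.0% were higher and 63.4% lower, and the median gene stood at -1.15. With no filter AXIN2 was higher as well (0.75 ± 0.15, adjusted p = 0.0108), 2 of 9 members higher and 1 lower beside 8.94% and 43.0% of features; that call was lost without pool A or either fibroblast line (adjusted p = 0.0565 to 0.0647; range 0.000492 to 0.0647). The TCF7 call was lost without pool B (0.58, adjusted p = 0.102) and without fibroblast line B (0.68, adjusted p = 0.0550), in a range of 0.000397 to 0.102 over the alternatives. On recovered reads 6 of 8 members were higher in blastocysts and NKD2 was lower, beside 28.8% higher and 30.5% lower of all genes: TCF7 by 2.84 ± 0.39, LEF1 by 2.21 ± 0.77, RNF43 by 3.27 ± 0.99 and ZNRF3 by 1.85 ± 0.63 log2, with AXIN2 and LGR5. Their adjusted p were 0.00126, 0.0452, 0.0273, 0.0420, 0.000492 and 0.000612 in that order. In the fits without the filter, LEF1, RNF43, ZNRF3 and LGR5 were called in only 1, 3, 4 and 8 of 14 alternatives. Per library total, the exact 95% intervals of the read ratio of blastocysts over fibroblasts included 1 for LEF1 (0.973 to 3.26), RNF43 (0.628 to 15.3) and ZNRF3 (0.631 to 2.14). RNF43 rests on 8 reads in the pools and 3 in the fibroblasts. The ratio of summed AXIN2 reads in blastocysts over fibroblasts, per library total, was 34.0 (exact 95% interval 11.3 to 167). With median-of-ratios library sizes, limma-voom gave 76.9 (95% interval 26.1 to 227).

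Past passage 10, the members kept being detected up to the last passages sampled. The P10 and later tables are separate sets, so no test was made across them. Whether both sets were processed alike is not known. All 8 later values lay above both P10 values for AXIN2, NKD2 and TCF7, and for no member did all 8 lie below. Among 10726 genes with 1 RPKM in 2 of the 10 libraries, 26.4% lay above in this way and 9.78% below. Of the members, only AXIN2, NKD2, TCF7 and ZNRF3 belong to that set, so these shares do not apply to all 9. The later median over the P10 mean was 1.60 for AXIN2, 1.66 for NKD2 and 1.76 for TCF7, where the median gene stood at 1.05. LEF1 had the lowest ratio, 0.564, and its later values ran from 0.313 to 0.977 RPKM, overlapping 1.17 and 0.812 RPKM at P10.

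**Figure D4:**
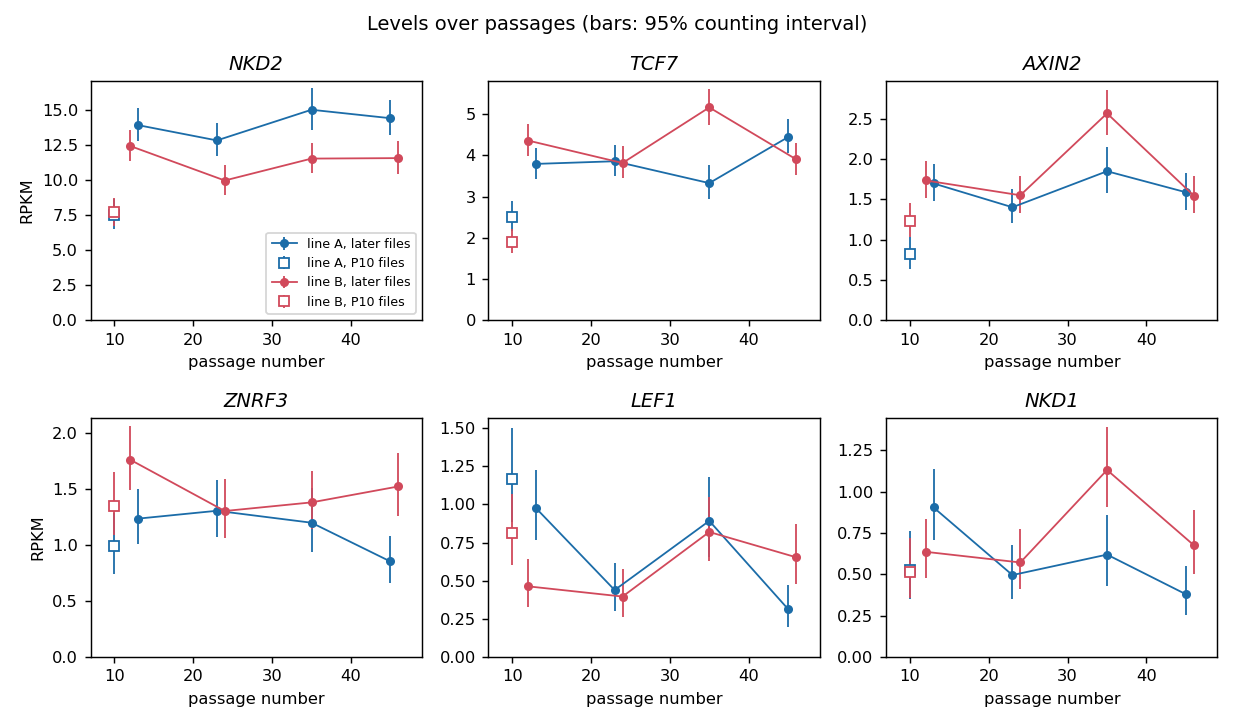
RPKM of 6 genes over passage number in lines A and B; filled circles joined by lines are the later libraries, open squares the P10 libraries from the separate first set, and bars exact 95% Poisson intervals. NKD2 lies higher in line A than in line B at each later stage, and LEF1, NKD1 and AXIN2 peak at P35 in line B.

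Within the later passages, NKD2 measured 13.9, 12.9, 15.05 and 14.4 RPKM in line A at P13, P23, P35 and P45. In line B it measured 12.5, 9.99, 11.6 and 11.6 RPKM at P12, P24, P35 and P46. The lines did not overlap, and NKD2 was the 1 member of 9 for which that held, beside 2.07% of 18975 features with line A above and 1.80% with line A below. The difference between lines was 0.28 ± 0.09 log2 (SE, unadjusted p = 0.0142), which did not pass adjustment over all genes in limma (adjusted p = 0.733). At P10 NKD2 was not higher in line A, at 7.52 RPKM (6.48 to 8.67) against 7.70 RPKM (6.76 to 8.74) in line B. ZNRF3 measured 1.23, 1.30, 1.198 and 0.852 RPKM in line A and 1.76, 1.30, 1.38 and 1.52 RPKM in line B, a difference of -0.22 ± 0.11 (adjusted p = 0.733). None of the 4 members tested was called, among 12765 genes of which 2 (0.0157%) were called in limma and 755 had an unadjusted p under 0.05. With passage stage as a replicate block 5 genes were called, no member among them. On recovered reads all 9 members were tested and none was called, with 2 genes of 15736 (0.0127%) called and 1054 at an unadjusted p under 0.05. The 95% interval of the line difference on reads ran from 0.03 to 0.51 for NKD2, from -0.58 to 0.19 for AXIN2 and from -0.51 to 0.13 for TCF7.

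No trend with passage passed the test. In limma no gene of 12765 (0%) was called for the slope, with 494 at an unadjusted p under 0.05, and limma-voom called 1 gene of 15736 (0.00635%), no member. The slope per 10 passages was 0.01 ± 0.04 log2 for NKD2, 0.01 ± 0.06 for AXIN2, 0.01 ± 0.05 for TCF7 and -0.06 ± 0.05 for ZNRF3. Their 95% intervals all lay between -0.16 and 0.14 per 10 passages. For the difference of slopes between lines 0 genes (0%) were called in limma, with 83 at an unadjusted p under 0.05, and 0 in limma-voom, with 125. The largest such differences among members on reads were those of LEF1 (-0.56 ± 0.27 per 10 passages, adjusted p = 0.999) and NKD1 (-0.42 ± 0.22, adjusted p = 0.999).

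With 1 library a passage, differences between single passages have no replicate check, and the ranges given here cover counting error only. LEF1 in line A measured 0.977 RPKM at P13 (0.767 to 1.23), 0.438 at P23 (0.300 to 0.618), 0.892 at P35 (0.658 to 1.18) and 0.313 at P45 (0.196 to 0.473), so that P13 and P35 lay beyond the counting intervals of P23 and P45. In line B LEF1 measured 0.462, 0.395, 0.819 and 0.653 RPKM, highest at P35. NKD1 was 0.905, 0.495, 0.619 and 0.379 RPKM in line A and 0.636, 0.571, 1.13 and 0.676 RPKM in line B, again highest at P35 in line B. AXIN2 was 1.70, 1.40, 1.85 and 1.59 RPKM in line A and 1.73, 1.55, 2.57 and 1.55 RPKM in line B, where P35 (2.30 to 2.86) lay beyond the counting intervals of the other passages. TCF7 was also highest at P35 in line B, at 5.16 RPKM, against 4.36, 3.81 and 3.91 RPKM at its other passages, but in line A P35 was its lowest value, 3.33 RPKM, against 3.79, 3.86 and 4.44 RPKM. The 12 fibroblast markers summed to 1031 and 1027 RPKM in line A at P13 and P35 and to 1140 RPKM in line B at P35, against 822 to 866 RPKM in the other 5 later libraries. Other marker sums differed between these libraries too. The endothelial markers summed to 3.04, 3.46 and 3.54 RPKM in the same 3 libraries, against 1.95 to 2.67 RPKM in the other 5. Primitive streak markers summed to 2.57, 4.12 and 5.32 RPKM against 1.56 to 2.82 RPKM, and trophectoderm markers to 236, 342 and 648 RPKM against 536 to 789 RPKM. The part of any of these markers in the values of the members was not tested. LGR5 ran from 0.472 to 0.827 RPKM in line A and from 0.662 to 1.07 RPKM in line B, and RNF43 from 0.160 to 0.303 and from 0.198 to 0.340 RPKM, with the lines overlapping for both.

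The machinery around these targets was read from 4 further lists. Of the destruction complex, its kinases, the tankyrases and Dishevelled, 11 of 16 tested genes were higher and 0 lower at P10 than in fibroblasts, with a median change of 0.77 beside 0.23 for all genes, of which 35.4% were higher and 21.9% lower. AXIN1, the constitutive counterpart of AXIN2, measured 22.1 and 19.2 RPKM at P10 against 7.51 and 6.21 RPKM in the fibroblasts (1.46 ± 0.22, adjusted p = 0.00162), and its level per length was thus far above that of AXIN2 in both. The Dishevelled gene DVL2 was also higher (adjusted p = 0.000479). APC2, which passed the filter only through P10 and so had to differ, measured 4.97 and 3.13 RPKM there, against 0.183 and 0.146 RPKM in the fibroblasts. The tankyrase genes TNKS and TNKS2, singled out with the values known because their products are the targets of IWR1, measured 13.9 and 12.4 RPKM and 24.1 and 33.7 RPKM at P10, and 12.3 to 14.02 and 23.3 to 28.6 RPKM in the later libraries. Against blastocysts 12 of 16 were higher and 1 lower, close to the 73.0% and 7.33% of all genes, with a median of 1.86 beside 1.43. On recovered reads 7 of 15 were higher and 0 lower than in fibroblasts, beside 30.3% and 23.3% of 12201 genes. Against blastocysts 5 of the 15 were higher and 4 lower on reads, close to the 33.1% and 24.6% of all genes.

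Of a list of nuclear partners of beta-catenin and of corepressors, 10 of 13 were higher and 1 lower at P10 than in fibroblasts. Among all genes 35.4% were higher and 21.9% lower, and the median change was 1.08 beside 0.23. The corepressors TLE4 (44.2 and 44.7 RPKM at P10 against 3.22 and 3.89 RPKM, adjusted p = 3.44e-05) and TLE3 and CTBP1 led. TCF7L2, a relative of TCF7 likewise singled out with its values known, measured 24.3 and 18.8 RPKM at P10, 0.230 and 0.449 RPKM in the pools and 3.56 and 12.2 RPKM in the fibroblasts. It was thus above TCF7 in bESC and below it in blastocysts, on the same per-length scale. Against blastocysts 12 of 13 were higher and 0 lower, beside 73.0% and 7.33% of all genes, with a median of 2.00 beside 1.43. On recovered reads 7 of 13 were higher and 2 lower than in fibroblasts, beside 30.3% and 23.3% of all genes. Against blastocysts 6 were higher and 2 lower on reads, beside 33.1% and 24.6%.

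Of the genes for R-spondins, their receptors and receptor turnover, 6 of 11 were higher and 2 lower at P10 than in fibroblasts, beside 35.4% and 21.9% of all genes, with a median change of 1.42 beside 0.23. Against blastocysts 7 were higher and 0 lower, a smaller share than the 73.0% of all genes that were higher, and the median of 1.45 (1.39 with genes listed at 0 set to 3 reads) was close to the 1.43 of all genes. On recovered reads 5 of 11 were higher and 1 lower than in fibroblasts, beside 30.3% and 23.3% of all genes. Against blastocysts 4 were higher and 2 lower on reads, beside 33.1% and 24.6%. RSPO1, an R-spondin, measured 2.10 and 1.37 RPKM at P10 and 0.028 RPKM and a listing at 0 in the fibroblasts; it passed the filter only through P10 and so had to differ. LGR4, a relative of LGR5 singled out in the same way, was at 66.8 and 42.6 RPKM at P10, 6.23 and 8.57 RPKM in the pools and 23.1 and 37.9 RPKM in the fibroblasts, and at 10.7 to 42.1 RPKM in the later bESC libraries, above LGR5 in all 14 libraries.

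Other WNT target genes did not move in 1 direction. At P10, 6 of 11 tested were higher and 3 lower than in fibroblasts (median 1.04 beside 0.23), where 35.4% and 21.9% of all genes were. Against blastocysts 7 were higher and 2 lower (median 2.05 beside 1.43), beside 73.0% and 7.33% of all genes. On recovered reads 14 were tested, with 7 higher and 4 lower than in fibroblasts, beside 30.3% and 23.3% of all genes. Against blastocysts 8 were higher and 4 lower on reads, beside 33.1% and 24.6%. SP8, a relative of SP5, measured 15.6 and 20.99 RPKM at P10 and was listed at 0 in all 4 controls, while MYC measured 0.718 and 0.970 RPKM at P10 against 23.3 and 19.7 RPKM in the fibroblasts. SP8, EPHB2 and MYC each passed the filter through 1 group only and so had to differ. EPHB2, an ephrin receptor, measured 19.7 and 19.4 RPKM at P10, against 0.156 and 0.109 RPKM in the pools and 0.618 and 0.132 RPKM in the fibroblasts. In the 8 later bESC libraries EPHB2 ran from 0.445 to 1.01 RPKM, in the separate second set of tables; whether the same gene model stands behind the name in both sets is not known, so these values cannot be compared with those at P10. In the later passages no gene of these 4 lists was called for the difference between lines or for the slope.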

How the data were processed

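Total RNA libraries (TruSeq RNA kit, per the labels' protocols) of 14 samples were deposited by the authors as RPKM values, 1 file per library, without counts. The submitters' processing notes name the genome build UMD3.1 and edgeR; no source used here gives the aligner, counter or annotation. The reference table at hand is of another build, so no coordinates are given; it holds all 10 symbols.

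The tables were processed in Python 3.11.15 (pandas 2.3.3, numpy 2.4.6, scipy 1.17.1). Rows whose names were unreadable or had turned into dates were left out. Values were tested as log2(RPKM + 1) with limma 3.58.1 in R 4.3.3 (empirical Bayes with trend, two-sided, Benjamini-Hochberg over all genes kept, adjusted p under 0.05), which understates changes of low genes; genes needed 1 RPKM in 2 libraries of a fit. One fit held P10, blastocysts and fibroblasts, 2 libraries each, so its 3 comparisons share libraries. Another held the 8 later libraries with line and passage. P10 and later libraries were set side by side without a test.

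Whole reads were recovered from the steps between RPKM values: a step was found for 16833 of 16930 genes with at least 5 later values above 0. In the first set 99.6% to 99.7% of checked values were whole within 0.15 read, and 100% in the second. Reads of 13982 genes were recovered in both sets and are known up to a common divisor per gene. They were tested with limma-voom and median-of-ratios library sizes (genes with at least 5 reads in 2 libraries), an alternative added after seeing the data, which called 6542 genes against fibroblasts and 7033 against blastocysts. Recovery and tests were tested on simulated data.

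The later libraries of the 2 lines were taken at matching stages, and deviations from the line means correlated at 0.166, 0.101, 0.290 and 0.572 per stage, so the stage was also used as a block. Other alternatives are given in the closing section. All 10 members were to be named; from the other lists, the up to 3 called genes with the smallest adjusted p. The members and lists were chosen with earlier results of these data known.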

Additional observations from a re-analysis of the deposited data

Results flagged for a closer look

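RNF43 in line A at P23 measured 0.303 RPKM, against 0.179, 0.160 and 0.163 RPKM in line A at P13, P35 and P45. The gap to the nearest library was 0.862 of the range of the 4 libraries, above Dixon's 95% critical value for 4 libraries; chance alone flags about 1 in 20 such groups. The value rests on 31 reads, against 19, 12 and 16 reads, and its counting interval (0.206 to 0.431 RPKM) overlaps those of the other 3.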

How the results depend on the processing

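Without the filter, with quantile normalization, with median-of-ratios scaling and on recovered reads, 8 of 9, 1 of 2, 1 of 2 and 5 of 8 members were called against fibroblasts. As planned 2 of 2 were called, and all these calls were higher at P10. Of all genes, 7173 of 17504, 6295 of 11761, 6187 of 11761 and 6542 of 12201 were called in these settings, and 6736 of 11761 as planned. Against blastocysts 3 of 9, 2 of 2, 2 of 2 and 3 of 8 members were called, and 2 of 2 with scaling without the top 2 features, where 1 of 2 was called as planned. Each pair of 2 calls was 1 higher and 1 lower at P10, and the calls on reads were 1 higher and 2 lower. Of all genes, 10458 of 17504, 7054 of 11761, 7596 of 11761, 7033 of 12201 and 7696 of 11761 were called in these settings, and 9445 of 11761 as planned. Between blastocysts and fibroblasts 7 of 8 members were called on recovered reads, beside 7238 of 12201 genes. As planned 2 of 2 were called there, beside 8746 of 11761 genes. More members could be tested without the filter and on reads; the cause of the other changes was not tested.

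Changes of members at P10 against blastocysts turned negative as follows. Under quantile normalization AXIN2 came to -1.20, NKD1 to -0.30, LEF1 to -0.69, TCF7 to -1.61, LGR5 to -0.72, RNF43 to -0.25 and ZNRF3 to -0.43. Under median-of-ratios scaling AXIN2 came to -0.65, LEF1 to -0.18, TCF7 to -1.17, LGR5 to -0.24 and RNF43 to -0.069. With scaling without the top 2 features AXIN2 came to -0.45, TCF7 to -0.88, LGR5 to -0.12 and RNF43 to -0.021. On recovered reads AXIN2 came to -1.31, LEF1 to -0.39, TCF7 to -1.70, LGR5 to -0.85 and RNF43 to -0.76. NKD2, listed at 0 in the pools, kept its direction in the 13 alternatives that tested it, but division by library factors leaves a 0 in place. It enters the filtered fits only through P10.

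Leaving out each library in turn gave 4345 to 6314 genes and 0 to 2 members called against fibroblasts, 0 to 1 members against blastocysts and 1 to 2 between the controls; without a P10 library NKD2 falls under the filter. TCF7 against blastocysts ran from -0.035 to 0.24, and between blastocysts and fibroblasts LEF1 ran from -0.047 to 0.41, NKD1 from -0.064 to 0.26 and ZNRF3 from -0.062 to 0.15.

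Between later lines, where 2 genes were called, 5 were called with a pseudocount of 0.1, 0 without the filter, 1 with quantile normalization, median-of-ratios scaling or shared names only, 4 with scaling without the top 2 features, 5 with passage stage as a replicate block, 0 without line A at P13 and P35, and 0 to 5 with 1 library left out. For the slope, 0 to 2 were called with 1 library left out and 1 on reads, where 0 were called as planned. No member was called in any of these.

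The letters A and B of the P10, blastocyst and fibroblast libraries gave correlations of -0.079, -0.099 and 0.187 and share only a name; with the letter as a replicate block 6570, 9420 and 8689 genes were called against 6736, 9445 and 8746, with LEF1 (adjusted p = 0.0530) and RNF43 (adjusted p = 0.0552) lost against fibroblasts, NKD1 (adjusted p = 0.0507) lost against blastocysts and LGR5 (adjusted p = 0.0478) gained between blastocysts and fibroblasts. SP5, at 3 reads or fewer in each control and P10 library, is limited by depth.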
